A study of Mus musculus with 9 samples.

Results

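Imprinted growth genes are described here by 10 members: H19, Meg3, Rian, Dlk1, Peg3, Mest, Plagl1, Grb10, Cdkn1c and Slc38a4. They were picked by gene name among 54986 gene IDs in the abundance files, as known imprinted genes, with earlier results of these data known. Their counts set beside those of all genes are therefore descriptions. All 10 were found, and all 10 passed the filter on low values that 15837 genes passed. Dlk1 and Rian each had 2 rows, so the 10 names took 12 rows.

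Imprinted genes are expressed mainly from a single parental allele, which for many of them is set by DNA methylation laid down in the egg or the sperm. Many of them act on growth before birth: as a rule of thumb, paternally expressed genes promote growth and maternally expressed genes restrain it. Several are abundant in fetal mesenchyme and in fibroblasts grown from embryos, and H19, Dlk1 and their relatives are known to fall in most tissues after birth. Loss of imprinted RNAs of the Dlk1 and Meg3 cluster is also a known defect of some induced pluripotent stem cell lines.

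The cells were mouse embryonic fibroblasts in primary culture (strain C57BL/6), and all carry the name D4-OSKM-2ndMEFs. OSKM is the usual abbreviation for the reprogramming factors Oct4, Sox2, Klf4 and Myc, and it stands in the name of all 3 groups, so no fibroblasts free of it were compared. The groups were control (3 libraries, with no overexpressed gene or vector in the label), overexpression of Zscan4f (3 libraries) and overexpression of Zscan4f3A (3 libraries). Zscan4f is a zinc finger gene known from the cleavage embryo and from embryonic stem cells. The label Zscan4f3A adds 3A to that name. The sequence of Zscan4f3A, the vector and its promoter, and the meaning of D4 were not known from the labels. Values are TPM, a measure of reads per length of transcript that sums to the same total in each library, so levels can be set side by side between genes. Aligned sequence was estimated at 3.31 to 8.39 gigabases per library, lowest in Zscan4f3A replicate 3. The files hold no counts, so the reads behind a single value are unknown. No source says that the replicates were separate cultures, and the p-values cover only the spread among the samples at hand, which may be technical. Zscan4f stood at 0 to 0.960 TPM in control libraries, 558 to 570.0 in Zscan4f libraries and 654 to 836 in Zscan4f3A libraries. The values sum both parental alleles, and methylation was not measured.

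Promoter sequences are shown first, with their CpG sites marked. Whether these stretches carry the imprint of a gene was not tested. RefSeq's table of promoters on GRCm38.p6 held 8 of the 10 members, all but H19 and Cdkn1c. For each, the start nearest to the 5′ end of the gene in the files was taken, and the 250 bases before it are given 5′ to 3′ on the gene's strand, with CG in capitals. The 5 shown are the members with the largest falls among protein-coding members in the Zscan4f libraries (Slc38a4, Dlk1, Grb10 and Peg3) and Plagl1, the member that rose:

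Slc38a4 (chr15:97055957-97056206, - strand): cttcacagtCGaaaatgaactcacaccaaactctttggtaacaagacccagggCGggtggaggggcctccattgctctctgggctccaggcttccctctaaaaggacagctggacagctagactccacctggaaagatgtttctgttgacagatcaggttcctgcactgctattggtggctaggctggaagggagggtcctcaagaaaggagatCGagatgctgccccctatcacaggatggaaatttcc
Dlk1 (chr12:109452573-109452822, + strand): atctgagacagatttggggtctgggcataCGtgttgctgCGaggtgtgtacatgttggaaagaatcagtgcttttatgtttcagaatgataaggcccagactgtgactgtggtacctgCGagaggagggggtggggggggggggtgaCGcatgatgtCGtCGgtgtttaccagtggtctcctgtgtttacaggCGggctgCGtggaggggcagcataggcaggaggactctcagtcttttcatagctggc
Grb10 (chr11:12037421-12037670, - strand): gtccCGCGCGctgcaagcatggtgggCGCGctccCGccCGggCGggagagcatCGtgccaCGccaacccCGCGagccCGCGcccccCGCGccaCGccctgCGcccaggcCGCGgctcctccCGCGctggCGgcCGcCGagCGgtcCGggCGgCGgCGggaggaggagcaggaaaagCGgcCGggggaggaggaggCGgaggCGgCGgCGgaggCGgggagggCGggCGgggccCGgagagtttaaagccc
Peg3 (chr7:6730420-6730669, - strand): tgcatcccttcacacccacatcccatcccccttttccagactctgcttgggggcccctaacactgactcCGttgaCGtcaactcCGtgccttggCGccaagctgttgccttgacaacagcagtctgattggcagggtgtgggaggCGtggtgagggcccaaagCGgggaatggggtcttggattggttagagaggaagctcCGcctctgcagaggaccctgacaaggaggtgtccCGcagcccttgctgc
Plagl1 (chr10:13090582-13090831, + strand): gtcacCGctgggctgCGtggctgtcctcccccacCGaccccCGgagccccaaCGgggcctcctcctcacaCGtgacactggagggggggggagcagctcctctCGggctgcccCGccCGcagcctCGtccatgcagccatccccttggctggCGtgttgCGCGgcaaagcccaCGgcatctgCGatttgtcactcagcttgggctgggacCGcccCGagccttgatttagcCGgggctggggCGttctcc

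The stretches differ widely in CpG. That of Grb10 held 40 CpG, more than 98.7% of the 32851 promoters of the table cut to the same 250 bases, and that of Plagl1 held 19. The table has 2 starts for Grb10, and the stretch before the other held 8. The starts of Plagl1, Grb10 and Mest used here lie well inside the gene as the files annotate it. Those of Dlk1 and Peg3 held 8 each and that of Slc38a4 held 3, against a median of 6 over all promoters. Among members not shown, Meg3 had 10, Mest 7 and Rian 0. The 2 motifs searched were read on both strands of these 250 bases, and neither contains the other. GGGGCCCC, the motif of Plagl1, was found before Peg3 alone of the 8, and 0.89% of all promoters hold it. TGCACAC, a motif given for Zscan4 proteins, was found before Mest alone, and 3.67% of all promoters hold it.

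Both H19 and Meg3 carry miRNAs within exons of GENCODE's basic set, where an exon of any listed transcript counted. Their mature sequences, from RefSeq on GRCm38.p6, are given 5′ to 3′ with the seed (bases 2 to 8) in capitals, and all have different seeds:

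miR-675-5p (H19, chr7:142577112-142577133, - strand): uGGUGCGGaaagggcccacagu
miR-675-3p (H19, chr7:142577078-142577099, - strand): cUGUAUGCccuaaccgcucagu
miR-770-5p (Meg3, chr12:109563710-109563731, + strand): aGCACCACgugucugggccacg
miR-770-3p (Meg3, chr12:109563744-109563765, + strand): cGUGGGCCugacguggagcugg
miR-1906 (Meg3, chr12:109544588-109544609, + strand): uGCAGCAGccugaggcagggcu

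Rian contains the hairpins of Mir341, Mir1188 and Mir370 and Mest that of Mir335, outside the exons of GENCODE's basic set. The abundance values describe the host genes over all their transcripts. Which transcripts in these cells hold the miRNAs was not tested, and mature miRNAs were not measured.

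In the control libraries the members ranged over more than an order of magnitude. Plagl1 and Meg3 were highest, at 148 ± 10.8 and 144 ± 6.50 TPM (SD, n = 3 here and below), and their libraries overlapped. H19 followed at 101 ± 2.04, Mest at 87.2 ± 5.32, Peg3 at 65.9 ± 3.08 and Rian at 54.3 ± 2.46, each apart from its neighbours in this order. Slc38a4 (46.1 ± 6.78) and Cdkn1c (44.9 ± 3.67) overlapped, and Dlk1 (8.68 ± 0.343) and Grb10 (7.73 ± 0.307) were lowest. With Zscan4f the order changed: Mest stood above Meg3 in the means, although their libraries overlapped, and Slc38a4, which overlapped Cdkn1c in control, lay below it with no overlap. By the mean, Plagl1 was highest and Grb10 lowest in all 3 groups. Dlk1 and Rian have a second row on a patch scaffold of the assembly with nearly the same values (8.78 ± 0.302 and 55.2 ± 2.12 TPM in control). Summed over both rows, control stood at 17.5 ± 0.645 TPM for Dlk1 and 109.5 ± 4.57 for Rian, so their chromosome 12 values may be read as a share of the gene's RNA, and their place in the order depends on this. The scaffold also lists Mir770, which lies inside Meg3, but no row named Meg3, and what this does to the level of Meg3 was not tested.

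**Figure D1:**
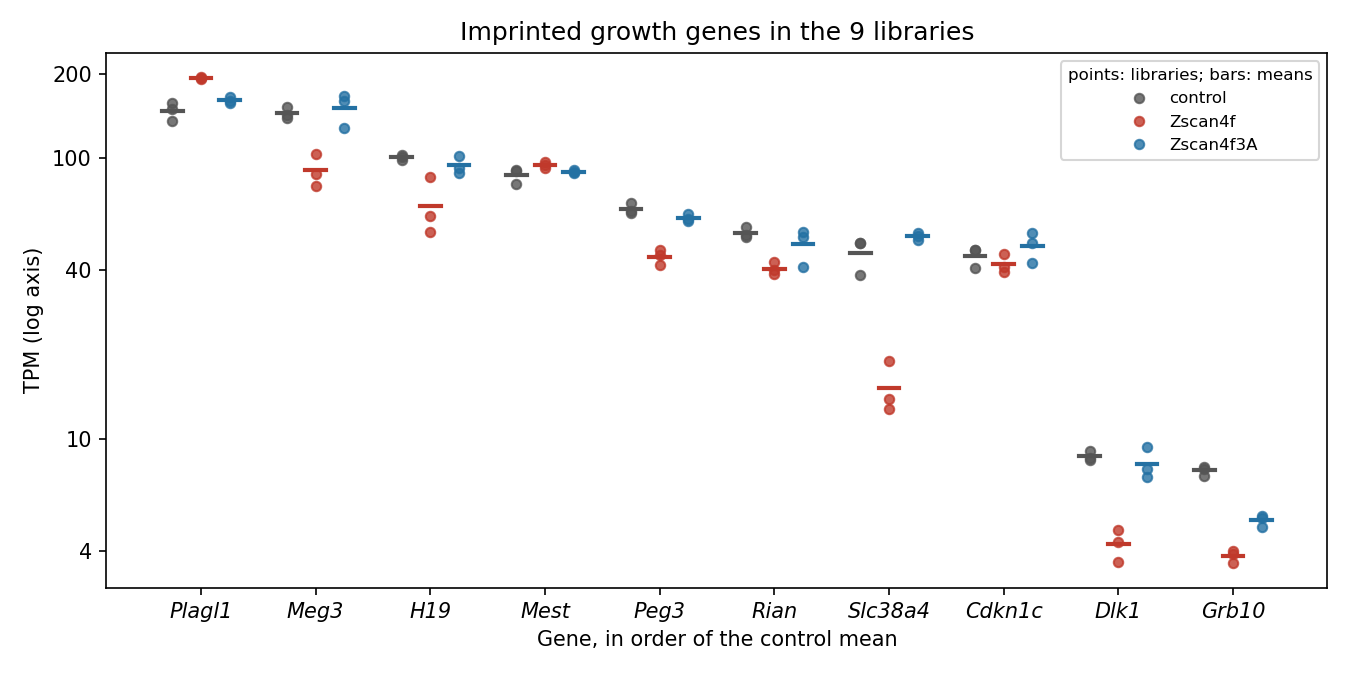
TPM of the 10 members in each of the 9 libraries on a log axis, in order of the control mean; points are libraries and bars are group means. The Zscan4f points lie below both other groups for Slc38a4, Dlk1, Grb10, Meg3, H19 and Peg3 and above them for Plagl1 and Mest.

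With Zscan4f overexpression, 7 of the 10 members fell against control and 1, Plagl1, rose. The falls ran from -0.42 (Rian) to -1.55 (Slc38a4) on the log2(TPM + 1) scale, while Mest and Cdkn1c did not pass the test. By limma at a Benjamini-Hochberg adjusted p under 0.05, 9.71% of all 15837 genes were lower and 8.74% higher, 18.5% in all. The median over the members was -0.57, against -0.0029 over all genes. In bulk RNA, fewer cells of a type and less RNA per cell cannot be told apart.

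Slc38a4 (ENSMUSG00000022464.14, chromosome 15, 96994820 to 97055956 on GRCm38), a paternally expressed transporter of neutral amino acids that is prominent in placenta and liver, fell the most. It stood at 38.3, 50.1 and 50.01 TPM in control and at 18.9, 12.8 and 13.9 with Zscan4f. Every Zscan4f library thus lay below every control library, at 32.9% of the control mean. The log2 fold change was -1.55 (SE 0.15, adjusted p = 0.000187), and it stayed between -1.71 and -1.44 under all alternatives tried.

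Dlk1 (ENSMUSG00000040856.17, chromosome 12, 109452823 to 109463336) is a paternally expressed transmembrane protein related to Notch ligands that holds back the differentiation of preadipocytes. It stood at 8.55, 8.42 and 9.07 TPM in control and at 4.29, 3.66 and 4.75 with Zscan4f. The groups did not overlap, and the mean came to 48.8% of control. The log2 fold change was -0.89 (SE 0.11, adjusted p = 0.000816). The scaffold row gave -0.88 (adjusted p = 0.000855).

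Meg3 (ENSMUSG00000021268.17, chromosome 12, 109541001 to 109571726), a maternally expressed long noncoding RNA of the same cluster, fell alongside. It stood at 142, 139 and 152 TPM in control and at 87.9, 103.5 and 79.8 with Zscan4f, with no overlap between groups (log2 fold change -0.68, SE 0.12, adjusted p = 0.00424). Rian (ENSMUSG00000097451.10, chromosome 12, 109603940 to 109661716), the next maternally expressed RNA of the cluster and the host of many small nucleolar RNAs, stood at 53.3, 52.4 and 57.1 TPM in control and at 38.6, 42.6 and 39.9 with Zscan4f. These groups did not overlap either, and the log2 fold change was -0.42 (SE 0.10, adjusted p = 0.020). The call on Rian was lost without control replicate 1 (adjusted p = 0.0515), control replicate 3 (0.0698), Zscan4f replicate 1 (0.0679) or Zscan4f replicate 3 (0.0628), and with no filter on low values (0.0527). The paternally expressed Dlk1 and the maternally expressed Meg3 and Rian thus moved in the same direction. Mirg, a further maternally expressed RNA of the cluster, did not pass (-0.20, interval -0.69 to 0.29, adjusted p = 0.598).

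H19 (ENSMUSG00000000031.16, chromosome 7, 142575529 to 142578143), the maternally expressed RNA next to Igf2, stood at 98.4, 101 and 102.5 TPM in control and at 85.9, 62.3 and 54.4 with Zscan4f. Zscan4f replicate 1 was nearest to control, and the groups did not overlap. The spread of H19 was 24.2% of the mean in the Zscan4f libraries against 2.03% in control. Its log2 fold change was -0.59 (SE 0.14, adjusted p = 0.0196). That call was lost without control replicate 1 (adjusted p = 0.0512), 2 (0.0585) or 3 (0.0607), without Zscan4f replicate 2 (0.0699) or 3 (0.0511), and with no filter (0.0574).

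Peg3 (ENSMUSG00000002265.16, chromosome 7, 6703892 to 6730431), a paternally expressed zinc finger protein linked to fetal growth and maternal behaviour, stood at 69.4, 64.6 and 63.7 TPM in control and at 47.2, 41.5 and 45.1 with Zscan4f. The groups did not overlap, and the spread within each was small beside the difference (log2 fold change -0.55, SE 0.06, adjusted p = 0.000301). Grb10 (ENSMUSG00000020176.17, chromosome 11, 11930508 to 12038683), an adaptor that dampens insulin and IGF receptor signals and is maternally expressed outside the brain, stood at 7.39, 7.97 and 7.84 TPM in control and at 3.62, 4.0 and 3.89 with Zscan4f. The mean was 49.6% of control with no overlap (log2 fold change -0.85, SE 0.08, adjusted p = 0.000172).

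Plagl1 (ENSMUSG00000019817.18, chromosome 10, 13060504 to 13131694) encodes a paternally expressed zinc finger transcription factor that is known to act on other imprinted genes, H19, Igf2 and Cdkn1c among them. It stood at 157, 136 and 150 TPM in control and at 193, 191 and 194 with Zscan4f. The Zscan4f libraries all lay above control (log2 fold change 0.38, SE 0.05, adjusted p = 0.00126).

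Mest (ENSMUSG00000051855.15, chromosome 6, 30723547 to 30748465), a paternally expressed gene of the hydrolase fold family, stood at 89.8, 90.7 and 81.0 TPM in control and at 97.0, 92.4 and 94.5 with Zscan4f. The libraries did not overlap, but the log2 fold change of 0.12 (95% interval 0.01 to 0.23) had an adjusted p of 0.133. Mest overlaps Copg2 on the opposite strand (54.7 ± 1.24 TPM in control), and strand-aware counting is not stated, so reads of the shared stretch are uncertain. Cdkn1c (ENSMUSG00000037664.13, chromosome 7, 143458339 to 143461050), a maternally expressed inhibitor of cyclin-dependent kinases, stood at 47.2, 40.7 and 47.0 TPM in control and at 41.0, 39.4 and 45.5 with Zscan4f. Its groups overlapped, and the log2 fold change was -0.10 (interval -0.32 to 0.13, adjusted p = 0.582). Across the members, 9 of 10 had groups that did not overlap, a property shared by 38.2% of all genes tested. Intervals given here are not adjusted for the number of genes.

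**Figure D2:**
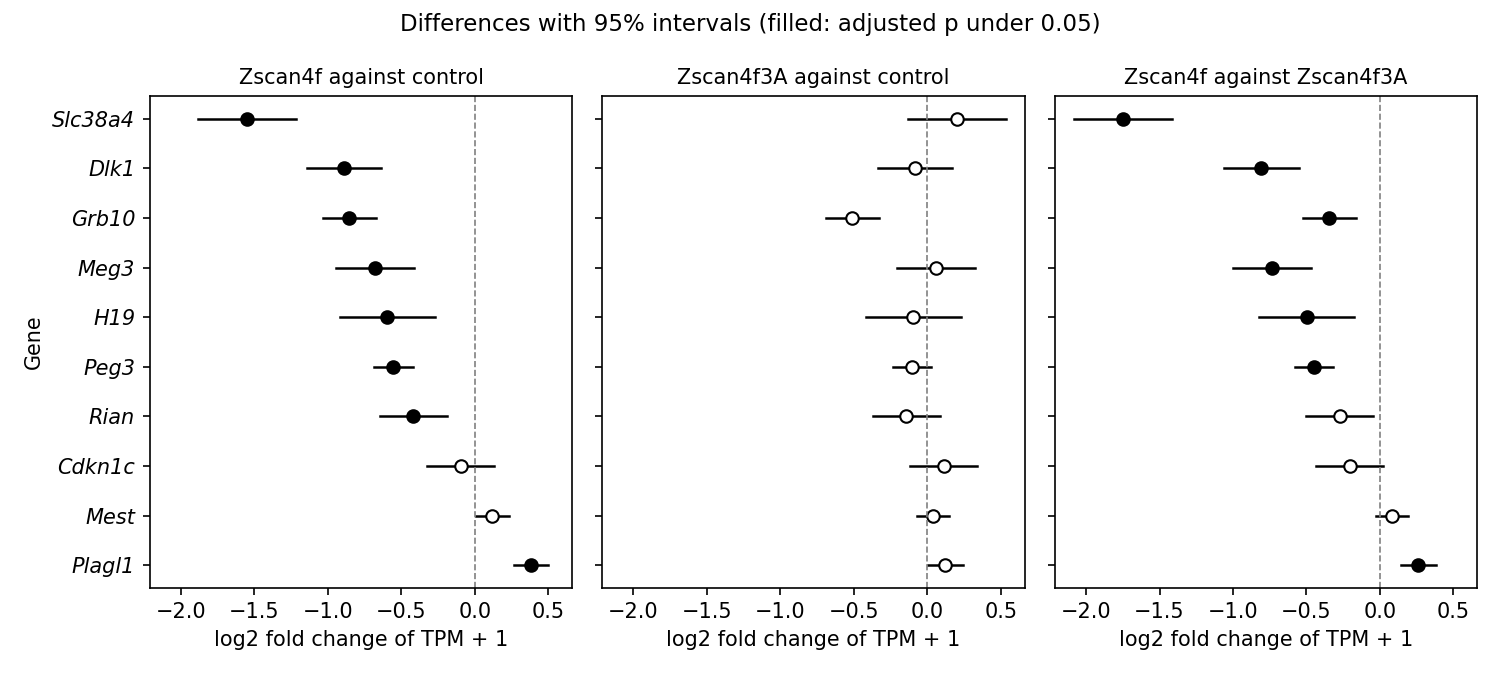
Log2 fold changes of TPM + 1 (horizontal axis) with 95% intervals for the 10 members in the 3 comparisons; filled points passed an adjusted p under 0.05. Slc38a4 lies at -1.55 and -1.75 in the comparisons of Zscan4f with control and with Zscan4f3A, and 0 members are filled for Zscan4f3A against control.

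With Zscan4f3A, 0 of the 10 members passed the test against control. In this comparison 0.0316% of all genes passed by limma, 0.0189% higher and 0.0126% lower, so a count of 0 is near the background. At an unadjusted p under 0.05 there were 2 members, Grb10 and Plagl1, against 8.77% of all genes. Grb10 stood at 5.31, 5.25 and 4.85 TPM, with every library below control and above every Zscan4f library, at 66.4% of the control mean. Its log2 fold change was -0.51 (interval -0.69 to -0.33), with an adjusted p of 0.217 that ran from 0.0722 to 0.565 over the alternatives. Peg3, at 63.0, 59.6 and 60.8 TPM, also lay below control in every library (-0.11, interval -0.24 to 0.03, adjusted p = 0.624). Slc38a4, at 54.1, 51.2 and 52.9 TPM, lay above it (0.20, interval -0.13 to 0.53, adjusted p = 0.699). These 3 of 10 did not overlap with control, against 15.4% of all genes.

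For the other members Zscan4f3A and control libraries overlapped. Plagl1 stood at 159, 157 and 165 TPM with Zscan4f3A, a log2 fold change of 0.12 (interval 0.003 to 0.24, adjusted p = 0.566). H19 stood at 88.8, 92.1 and 102 TPM (-0.10, interval -0.42 to 0.23), and Dlk1 at 7.31, 7.82 and 9.36 TPM (-0.08, interval -0.34 to 0.17). Cdkn1c stood at 54.0, 49.9 and 42.4 TPM (0.11, interval -0.12 to 0.34) and Mest at 88.9, 88.4 and 90.7 TPM (0.04, interval -0.07 to 0.15). Among these members Zscan4f3A replicate 3, the library of lowest depth, was lowest in its group for Meg3 (128 TPM against 166 and 160.0), Rian (41.1 against 52.2 and 54.6) and Cdkn1c. It was highest in its group for Dlk1, H19, Plagl1 and Mest. The log2 fold change against control was 0.06 for Meg3 (interval -0.21 to 0.32) and -0.14 for Rian (interval -0.37 to 0.08). No adjusted p for these members was under 0.566.

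Compared directly with Zscan4f3A, Zscan4f gave lower levels of 6 members and a higher level of Plagl1. By limma 7.64% of all genes were lower and 7.48% higher in this comparison, 15.1% in all, and the median was -0.40 over the members and 0.0021 over all genes. Slc38a4 was at 28.8% of the Zscan4f3A mean (log2 difference -1.75, SE 0.15, adjusted p = 0.000167). Dlk1 was at 51.8% (-0.81, SE 0.11, adjusted p = 0.00185), Meg3 at 59.7% (-0.74, SE 0.12, 0.00356) and Peg3 at 72.9% (-0.45, SE 0.06, 0.0014). Plagl1 was at 120% (0.26, SE 0.05, adjusted p = 0.0109). The 2 comparisons that use Zscan4f share its libraries, so their agreement is not independent.

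The calls on Grb10 and H19 in this comparison were less secure. Grb10 differed by -0.34 (SE 0.08, adjusted p = 0.0212), which was lost without Zscan4f replicate 1 (adjusted p = 0.0682) or 3 (0.0579), without Zscan4f3A replicate 1 (0.0638) or 2 (0.0652), with only the 2 groups fitted (0.0623), with the replicate number as a block (0.0517) and with quantile normalization (0.0662). H19 differed by -0.50 (SE 0.14, adjusted p = 0.0476). Its highest Zscan4f library (85.9 TPM) lay just under its lowest Zscan4f3A library (88.8). The H19 call was lost without control replicate 1 (adjusted p = 0.070), 2 (0.0720) or 3 (0.0711), Zscan4f replicate 2 (0.136) or 3 (0.120), or Zscan4f3A replicate 1 (0.0764), 2 (0.0960) or 3 (0.120). It was also lost with the replicate block (0.0849), with only the 2 groups fitted (0.107), with no trend (0.0675) and with no filter (0.121). Rian overlapped in Zscan4f3A replicate 3 and did not pass (-0.27, SE 0.10, adjusted p = 0.105), but without that library it was -0.40 with an adjusted p of 0.00542. Cdkn1c (-0.21, interval -0.43 to 0.02, adjusted p = 0.209) and Mest (0.08, interval -0.03 to 0.19, 0.30) did not pass. In 8 of 10 members the groups did not overlap, against 34.8% of all genes.

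Chromosome neighbours of the members were read next, 39 genes listed by locus, of which 38 were in the files under these names and 25 passed the filter. With Zscan4f against control 4 of the 25 rose and 1 fell, with a median of -0.004, a share near the 18.5% of all genes called. None of the 4 rises or the fall was at the loci of H19, Dlk1, Peg3, Mest or Grb10. At the Slc38a4 locus Slc38a1, a related transporter of glutamine and other neutral amino acids, moved the other way. It rose from 29.5 ± 1.22 to 44.1 ± 2.80 TPM (0.57, adjusted p = 0.000337). Slc38a2, another of the family, rose from 106.9 ± 2.40 to 119.5 ± 2.66 TPM (0.16, adjusted p = 0.0222). The call on Slc38a2 was lost without control replicate 2 or 3 or Zscan4f replicate 1 or 3, where it reached 0.0772. Amigo2, also listed at this locus, did not rise (3.23 ± 0.39 and 3.04 ± 0.30 TPM, -0.066, adjusted p = 0.765). At the Plagl1 locus, Ltv1, a ribosome assembly factor, rose from 49.4 ± 2.56 to 61.4 ± 1.63 TPM and Phactr2 from 21.1 ± 0.797 to 25.6 ± 1.26. At the Cdkn1c locus Osbpl5, a lipid transfer protein, fell from 89.0 ± 2.64 to 72.0 ± 4.40 TPM (-0.30, adjusted p = 0.0168, lost without control replicate 1 or Zscan4f replicate 2, at up to 0.0603).

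Igf2, the paternally expressed growth factor beside H19, could not be read alongside it. The control libraries read 66.9, 184 and 208 TPM, the Zscan4f libraries 113, 112 and 112, and the Zscan4f3A libraries 81.3, 198 and 110.3. The control libraries thus reached below and above both other groups, and the log2 fold change of -0.28 with Zscan4f had an interval of -1.28 to 0.71. In the Dlk1 cluster Mirg, a further maternally expressed RNA, had a control mean of 7.25 ± 0.995 TPM and a Zscan4f mean of 6.40 ± 2.41 (adjusted p = 0.598). Begain had means of 5.33 ± 0.452 and 3.32 ± 0.601 TPM (adjusted p = 0.0637). Dio3 and the neighbours of Peg3 other than Zim1 stayed under the filter.

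**Figure D3:**
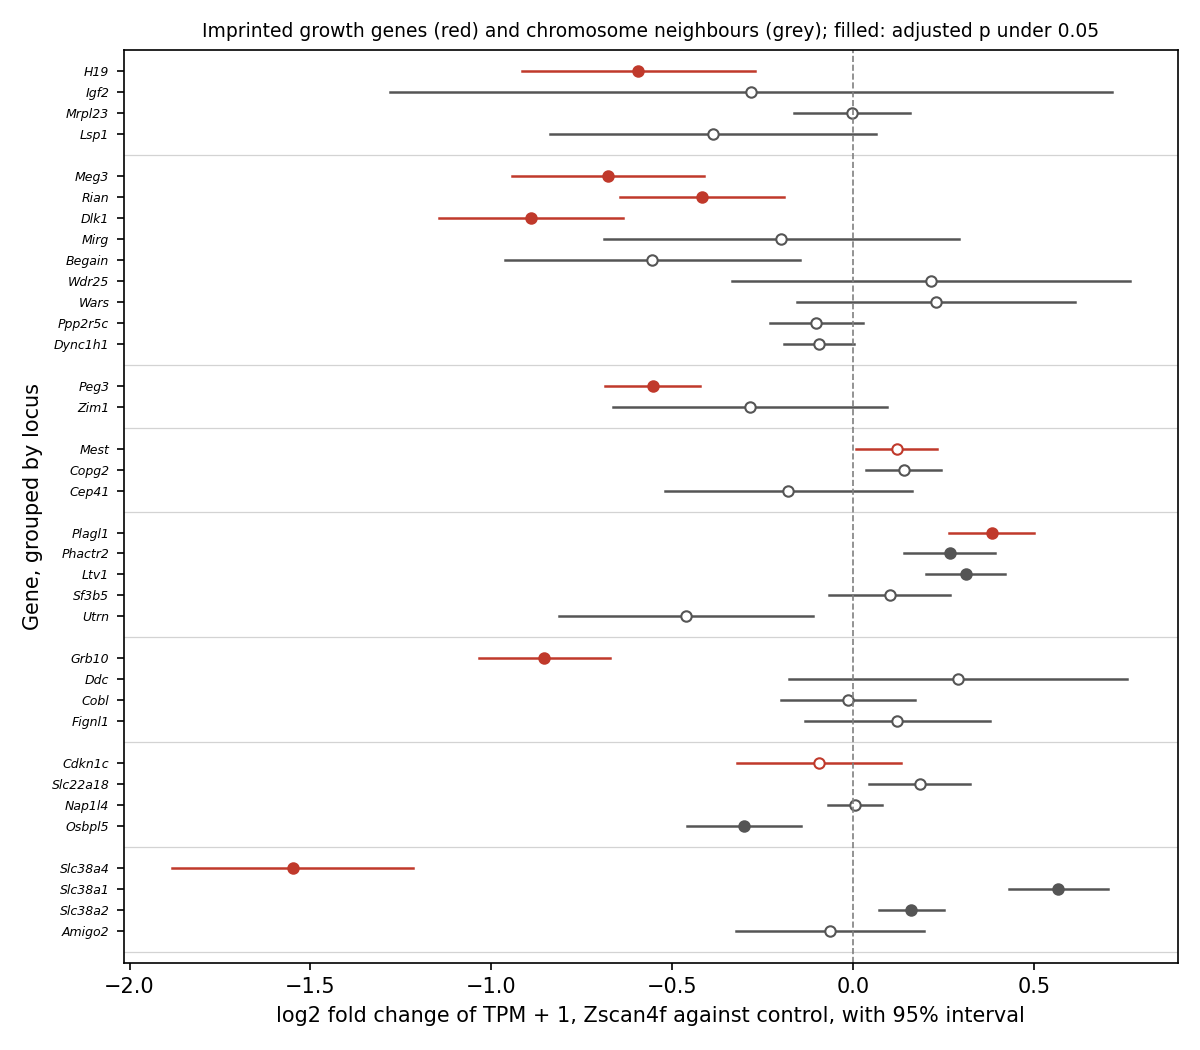
Log2 fold changes of TPM + 1 with Zscan4f against control and their 95% intervals for the 10 members (red) and the 25 tested neighbours (grey), grouped by locus; filled points passed an adjusted p under 0.05. Slc38a4 lies at -1.55 while Slc38a1 beside it lies at 0.57.

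Other imprinted genes were read from 2 lists, sorted by expressed allele from textbook knowledge. Whether each listed gene is imprinted in these cells was not tested. Of 27 maternally expressed genes listed apart from the members, 16 passed the filter. Of these 2 rose and 2 fell with Zscan4f, with a median of 0.05. Over all genes 8.74% were higher and 9.71% lower, 18.5% in all, with a median of -0.003. Dcn, the matrix proteoglycan decorin, rose from 1236 ± 14.1 to 1756 ± 9.45 TPM (0.51, adjusted p = 4.2e-05), and Atp10a, a phospholipid flippase, from 26.6 ± 2.06 to 35.5 ± 1.502 (0.41, adjusted p = 0.00304). Igf2r, the receptor that clears IGF2, fell from 163 ± 1.17 to 146 ± 6.04 TPM (-0.16, adjusted p = 0.0219). That call was lost without any 1 control library or Zscan4f replicate 2 or 3, at up to 0.0685. The fourth was Osbpl5, given above.

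Of 27 paternally expressed genes 26 were in the files and 17 passed. With Zscan4f 5 fell and 1 rose, with a median of -0.15. Nap1l5, a nucleosome assembly protein relative, fell from 7.61 ± 0.793 to 3.53 ± 0.792 TPM (-0.94, adjusted p = 0.00233), and Ndn, the growth-restraining protein necdin, from 67.1 ± 2.05 to 54.4 ± 0.666 (-0.30, adjusted p = 0.0012). Peg13, a noncoding RNA, fell from 9.10 ± 0.723 to 6.84 ± 0.315 TPM (adjusted p = 0.0146; lost without control replicate 2 or Zscan4f replicate 3, at up to 0.0551). Zdbf2 stood at 1.14 ± 0.115 and 0.488 ± 0.00947 TPM (adjusted p = 0.020), and Mkrn3 at 2.55 ± 0.495 and 1.44 ± 0.224 (0.0287). Both of those low-level calls were lost without any 1 of 5 libraries. For Zdbf2 these were control replicates 2 and 3 and all Zscan4f libraries, at up to 0.0667, and for Mkrn3 control replicates 1 and 3 and all Zscan4f libraries, at up to 0.0951. Peg10, a gene of retrotransposon origin needed in placenta, stood at 12.1, 12.1 and 11.8 TPM in the control libraries. With Zscan4f it rose to 15.8, 13.75 and 14.9 (0.28, adjusted p = 0.017). That call was lost without control replicate 3 or Zscan4f replicate 1 or 3, at up to 0.0568. The Zscan4f3A libraries also lay above control for Peg10, at 14.2, 13.6 and 14.1 TPM (0.20, adjusted p = 0.464). They overlapped with the Zscan4f libraries (0.08, adjusted p = 0.464). Over both lists 10 of 33 genes were called, against 18.5% of all genes. That count was 6 without control replicate 3, 6 without Zscan4f replicate 2 and 5 without Zscan4f replicate 3. With Zscan4f3A 0 of the 33 passed against control, where 0.0316% of all genes passed. For Zscan4f against Zscan4f3A 7 of 33 passed, against 15.1% of all genes. Among the 7, 2 were higher (Dcn and Atp10a) and 5 lower (Osbpl5, Ndn, Nap1l5, Mkrn3 and Zdbf2). In that comparison the call on Zdbf2 (adjusted p = 0.0446) was lost without any 1 of the 9 libraries, at up to 0.126, and that on Mkrn3 (0.0244) without Zscan4f replicate 2 or 3 or Zscan4f3A replicate 1 or 2, at up to 0.0803.

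**Figure D4:**
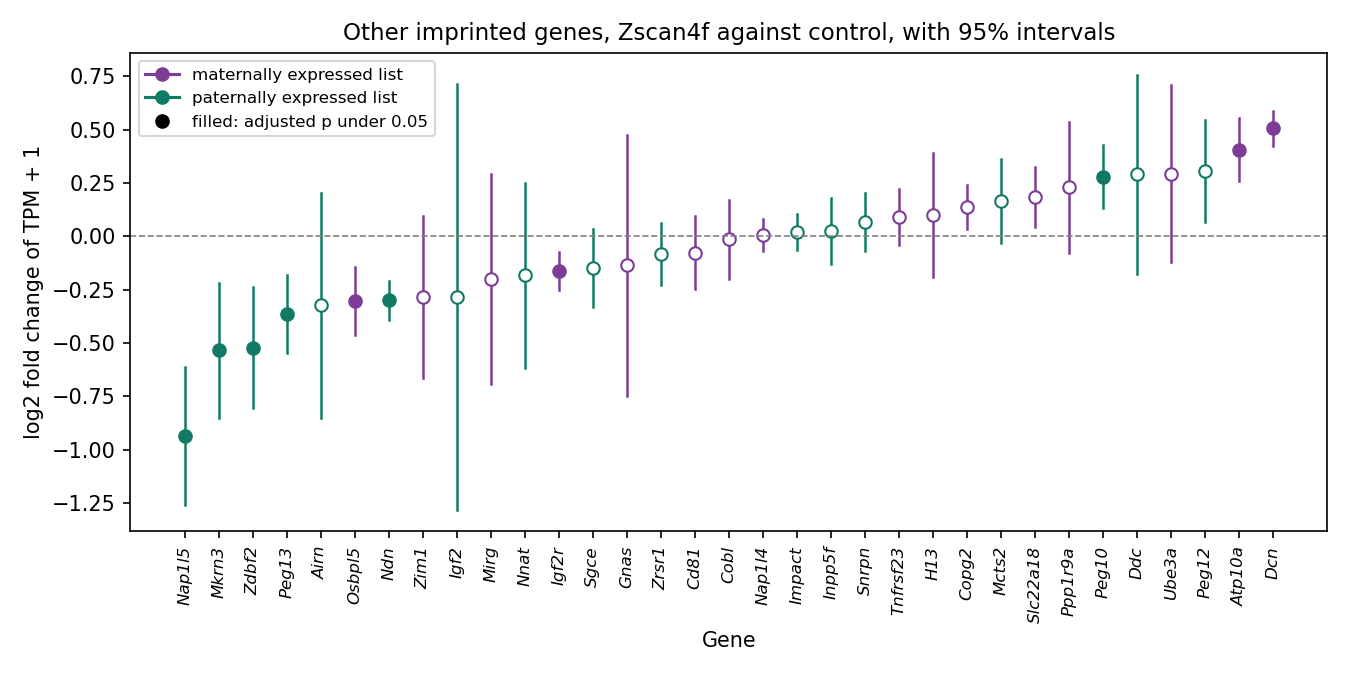
Log2 fold changes of TPM + 1 with Zscan4f against control, with 95% intervals, for the 33 other imprinted genes that passed the filter, in order of size and coloured by the list each belongs to; filled points passed an adjusted p under 0.05. Nap1l5 lies lowest at -0.94 and Dcn highest at 0.51, and the interval of Igf2 is the widest.

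Relatives of the members by function were counted in the same fit. With Zscan4f against control 18.5% of all genes were called, 9.71% lower and 8.74% higher. The sets are small, so their counts are descriptions. Of 6 cell cycle inhibitors of the families around Cdkn1c, 2 fell with Zscan4f: Cdkn1a from 935 ± 29.9 to 791 ± 22.3 TPM (adjusted p = 0.00131) and Cdkn2a from 273 ± 10.5 to 238 ± 1.69 (0.027, lost without any 1 of the 6 libraries compared, at up to 0.0912). Of the 5 tested genes among Grb10's relatives and the receptors and substrates it is linked to, 3 fell. Grb14, an adaptor of the same family, fell from 62.4 ± 4.07 to 40.7 ± 2.61 TPM (-0.61, adjusted p = 0.00052), Irs1, an insulin receptor substrate, from 28.4 ± 0.857 to 22.00 ± 1.12 and Insr, the insulin receptor, from 24.8 ± 0.846 to 20.04 ± 1.06. Of 12 tested Notch ligands, receptors and targets, read because Dlk1 resembles Notch ligands, 3 rose and 1 fell. Nrarp rose from 3.58 ± 0.122 to 7.50 ± 0.745 TPM, Notch4 from 10.8 ± 0.919 to 20.5 ± 1.35 and Hey2 from 23.3 ± 1.10 to 32.6 ± 2.13, while Notch3 fell from 10.8 ± 0.678 to 7.17 ± 0.373. Dlk2, the paralogue of Dlk1, stood at 2.27 ± 0.420 and 3.03 ± 0.362 TPM (adjusted p = 0.183).

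Genes that write, read or protect imprints were read next. Of 24 listed, 21 passed the filter, and with Zscan4f 3 fell and 0 rose, with a median of -0.04. Over all genes 9.71% were lower and 18.5% called, so this count is near the background. These were Arid4a (23.7 ± 0.771 to 18.0 ± 0.666 TPM, adjusted p = 0.00172), the histone methyltransferase Ehmt2 (147 ± 5.72 to 122.9 ± 5.39, 0.0106) and Tet2, which oxidises methylated cytosine (28.3 ± 2.93 to 19.3 ± 0.942, 0.00244). Zfp57, the zinc finger protein that guards imprints in early embryos, ranged from 9.46 to 20.98 TPM over the control libraries, from 5.82 to 12.5 over the Zscan4f libraries and from 13.2 to 18.9 over the Zscan4f3A libraries. Its groups overlapped for Zscan4f against control (adjusted p = 0.106). Dnmt1, which copies DNA methylation, had means of 26.3 ± 0.888 and 27.95 ± 1.92 TPM (adjusted p = 0.457), and Dppa3 and Dnmt3l were listed at 0 in all libraries. Against Zscan4f3A, Arid4a and Ehmt2 were lower and Uhrf1 higher with Zscan4f, among the 21 tested. In that comparison 15.1% of all genes were called, so this count too is near the background. The Uhrf1 call (adjusted p = 0.0482) was lost without any 1 library other than Zscan4f3A replicate 3, at up to 0.148, and that on Ehmt2 (0.0406) without any 1 of 6 libraries (control replicates 1 and 2, Zscan4f replicates 1 and 2, Zscan4f3A replicates 2 and 3), at up to 0.123.

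Genes with the profile most like each changed member over the 9 libraries were found among about 10577 named genes with a mean of at least 5 TPM. Likeness was the root mean square difference between log2(TPM + 1) profiles centred on their means, and it is a description of 9 libraries that share their groups. Peg3 was closest to Ctsk, the protease cathepsin K (difference 0.0316), and Fat1, an atypical cadherin (0.0354), against 0.247 for the spread of Peg3 itself. Plagl1 was closest to Tbccd1 (0.0347) and Cd200 (0.0433), Rian to Socs2 (0.0552) and Mcee (0.0615), and H19 to Tnfrsf11a (0.0799) and Pcdh9 (0.0896). Dlk1 was closest to Arhgap20 (0.0856) and Mmp2 (0.0908), a matrix protease that stood at 197 ± 8.22 TPM in control libraries, 111 ± 8.08 in Zscan4f libraries and 182 ± 8.98 in Zscan4f3A libraries. Meg3 was closest to Pag1 (0.0946) and Slc2a10 (0.102), Grb10 to Cd200r2 (0.107) and Aff3 (0.113), and Slc38a4 to Gria1 (0.209) and Tenm3 (0.244). No member was among the closest pair of another.

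Markers of cell types were read beside these results. All 12 fibroblast markers passed the filter, and their summed level was 11650 to 11910 TPM (control), 11550 to 11730 TPM (Zscan4f) and 11830 to 11920 TPM (Zscan4f3A). With Zscan4f 6 of the 12 were lower (Col1a1, Col3a1, Pdgfrb, Vim, Fbln2 and Postn) and 2 higher (Col1a2 and Pdgfra). Over all genes 9.71% were lower and 8.74% higher. Col1a2, the most abundant of the 12, rose from 4260 to 5050 TPM in the means, which offsets falls of other markers in the sum. Of 9 epithelial markers 7 passed and 5 of those were higher with Zscan4f (Epcam, Cdh1, Krt8, Krt18 and Cldn4), and their sum was 57.6 to 61.8 TPM (control), 132 to 140.5 TPM (Zscan4f) and 59.9 to 64.9 TPM (Zscan4f3A). Of 8 skeletal muscle markers 2 passed, with sums, with Acta1 higher with Zscan4f, of 18.9 to 22.1, 26.9 to 30.03 and 21.95 to 25.01 TPM, and Myod1, Myf5 and Pax7 were listed at 0 throughout. Endothelial markers summed to 39.8 to 42.7, 59.0 to 62.8 and 41.4 to 43.4 TPM in the same order of groups (2 of 6 passed, Tek and Flt1, both higher with Zscan4f), and macrophage markers to 15.3 to 17.4, 20.5 to 22.8 and 14.6 to 16.1 (2 of 6 passed, Cd68 higher and Cd14 lower). Of 7 trophoblast and extraembryonic endoderm markers 2 passed and 0 changed (4.69 to 5.28 TPM with Zscan4f, 6.02 to 6.46 in control, 4.63 to 6.68 with Zscan4f3A), with Cdx2 at 0. Of 6 chondrocyte and osteoblast markers 4 passed and 1, Sox9, was lower with Zscan4f (sums of 216 to 236, 231 to 258 and 225 to 247.5 TPM), and of 5 adipocyte markers 2 passed and 0 changed (4.67 to 5.88, 4.12 to 5.57 and 3.50 to 4.82). The part of these markers in the falls of the imprinted growth genes was not tested.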

How the data were processed

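Total RNA of 9 libraries was sequenced (TruSeq RNA kit, per the labels' protocols). Reads were aligned by the authors (HISAT2 2.1.0) and turned into abundances with StringTie, per the submitters' processing notes. Neither build nor annotation is given in the sources used here. Among the 54986 gene IDs, 54079 were found in GENCODE M21 (GRCm38), 97.7% with identical coordinates, as for all 10 members. The deposited TPM values are per kilobase of transcript, scaled by the authors to the same sum per library. The deposited FPKM values are scaled by the authors to fragments of the library. The deposited coverage signal is mean read depth without such scaling, and its commonest ratio to FPKM gave the depth in gigabases. The 15 repeated gene IDs were summed. No pair of libraries was identical (0 of 36).

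Groups and replicate numbers came from the sample titles. The 15837 genes that reached a TPM of 1 in 3 or more libraries were kept, and log2(TPM + 1) of all 9 libraries was fitted with limma 3.58.1 in R 4.3.3 (group means, trended prior variance). A call is an adjusted p under 0.05, with p-values adjusted by Benjamini and Hochberg's method over the 15837 genes of each comparison. The code was tested on simulated data. Figures used Python 3.11.15, pandas 2.3.3 and matplotlib 3.10.9. All members were named, and of each list up to 5 called genes with the smallest p; Mkrn3 is beyond this in the comparison with control, and genes given without a call were chosen after their values were seen. For each changed member the 2 genes of most similar profile were named. Members and lists were chosen with earlier results of these data known.

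Alternatives were FPKM, 2 other scalings, a pseudocount of 0.1, a filter at 5 TPM or none, TPM without mitochondrial and Zscan4 genes, a fit of 2 groups, no trend, a robust prior, the replicate block, a call that also needs a fold of 1.5, and the fit without each library in turn. Chosen after seeing the data were leaving out scaffold rows and summing both rows of Dlk1 and of Rian.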

Additional observations from a re-analysis of the deposited data

How the results depend on the processing

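With Zscan4f against control the count of called members was 5 with a fold change of at least 1.5 required and 6 to 8 with 1 library left out. For Zscan4f against Zscan4f3A it was 3 with that fold and 5 to 7 with 1 library left out. With Zscan4f3A against control it was 0 under every alternative run. The log2 fold changes of Slc38a4, Dlk1, Meg3, Peg3 and Plagl1 kept direction and call in both comparisons of Zscan4f under all alternatives other than the fold threshold, and those of Grb10 in the comparison with control. The 2 values that were near 0 changed sign with Zscan4f3A against control: with 1 library left out Mest ran from -0.014 (without control replicate 3) to 0.066 and Meg3 from -0.014 (without Zscan4f3A replicate 1) to 0.17. Over all genes, the fold threshold left 891 calls with Zscan4f against control and 657 for Zscan4f against Zscan4f3A. With no fold threshold, the latter comparison gave 2395 calls, and 1574 to 2168 with 1 library left out, fewest without Zscan4f replicate 3. Zscan4f against control gave 2922, and 2126 to 3285 with 1 library left out. With Zscan4f3A against control, 5 genes were called, 3 with the fold threshold, 3 with no filter, and 1 to 16 with 1 library left out. The other imprinted genes numbered 1 with the fold threshold in each comparison that uses Zscan4f, and 5 to 12 with 1 library left out for Zscan4f against control.

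With the replicate number as a block 8 members were called for Zscan4f against control and 5 for Zscan4f against Zscan4f3A. Over all 15837 genes the block gave 2504 and 1883 calls in these comparisons. For Zscan4f3A against control it gave 0 members and 1 gene in all. The labels do not say whether the numbers pair the samples. Correlations of deviations ran from -0.0792 to 0.0533 between same-numbered libraries and from -0.0481 to 0.054 between the others. Same-numbered pairs of control and Zscan4f3A ran from 0.0362 to 0.0533, and those of control and Zscan4f from -0.0792 to -0.0137. Such small values do not settle whether samples were paired. No scaling moved the median of all genes by over 0.1. The files hold no counts, so no counting error is given and what depth limits was not measured.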
